A study of Drosophila melanogaster with 9 samples.

Results

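Whole first instar larvae of Drosophila melanogaster were compared between the sexes, with 6 male libraries set against 3 female libraries out of 9 libraries in all. The males were of 2 genotypes with 3 libraries each, so that a sex difference could be read in males with and without the noncoding roX RNAs. Only genes whose difference from females had the same sign in both male groups were kept, which left 7134 of the 11308 genes tested (63.1%), out of 17611 gene IDs counted. The series title concerns the roX RNAs, and no aim is stated for the females on their own.

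The roX-KO males carried the alleles roX1[ex6] and roX2[9-4]. The WT males and the WT females are labelled wild type, and neither a stock nor an exact age beyond the larval stage is given for any group. The extraction text of all samples, females included, speaks of male larvae. Nothing in the labels says whether replicates came from separate cultures, and a p-value here reflects no more than the variation among these libraries, which may be technical. The labels name no batch. A batch or a separate stock of the female libraries, if there was one, cannot be told apart from sex for any gene. In whole larvae, more cells of a type and more RNA per cell cannot be told apart.

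Sex in Drosophila is set by the number of X chromosomes. In females the splicing regulator Sxl is made, which directs the female splicing of tra and through it of dsx, and keeps msl-2 from being translated. In males MSL2 is made, and the MSL complex with the roX RNAs binds the X and raises its transcription. In the embryonic gonad the somatic cells of males signal through JAK-STAT to the germ cells, which take up division earlier than in females. Germ cells use their own copies of some ribosomal proteins and translation factors, and the piRNA pathway, in which Piwi proteins loaded with small RNAs silence transposons.

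The libraries held 17318293 to 18020359 counts in genes. WT female 3 stood apart from WT female 1 and 2, with correlations of log2 CPM (counts scaled to library size) of 0.955 and 0.958, where WT female 1 and 2 correlated at 0.996 with each other. Its scaling factor was 0.836, beside 1.03 and 1.02 in the other females, 1.09 to 1.12 in roX-KO males and 0.932 to 0.959 in WT males. Counts are therefore also given without it. The roX counts followed the labels: roX1 had 63, 52 and 68 counts in roX-KO males, 5571, 4964 and 6002 in WT males, and 440, 403 and 314 in WT females. For roX2 the counts were 0, 0 and 0 in roX-KO males, 150, 181 and 162 in WT males, and 3, 4 and 6 in WT females. As roX1 and roX2 were low in roX-KO males by genotype, they have opposite signs in the male groups and are not among the genes kept.

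Many genes of the germ line were higher in males of both genotypes, and a short stretch of the X next to the eye colour gene w had few or no counts in males. With the mean of the male groups minus females tested by edgeR's quasi-likelihood test at an adjusted p under 0.05, 1495 genes were higher in both male groups (13.2% of those tested) and 1847 were lower (16.3%). Since a mean can pass through 1 group alone, a stricter count also asked that each male group by itself differ from females: 843 genes were then higher (7.45%) and 853 lower (7.54%). Both contrasts use the same female libraries. Without WT female 3, the counts were 2354 higher and 2460 lower, and 1459 higher and 1397 lower with each group called. All 6 male libraries lay above all 3 female libraries in 1268 genes (11.2%) and below them in 1247 (11.0%). A further 347 genes were called in each male group with opposite signs and were not kept.

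The differences were moderate for most of the genes called in each group. The median log2 difference of the mean of both male groups was 0.87 for the 843 higher genes and -1.01 for the 853 lower ones. A difference of at least 2-fold in each male group was found for 234 of the higher and 225 of the lower genes. The male groups themselves differed in 289 of the 843 higher genes and 403 of the 853 lower genes, where 39.5% of all tested genes differed between roX-KO and WT males. WT males were the farther from females in 222 of those 289 higher genes, and roX-KO males in 258 of the 403 lower ones. "Higher" and "lower" below mean called in each male group unless stated otherwise, and all log2 differences are male minus female from the same fit. Each list count below is to be read beside the shares over all tested genes, 7.45% higher and 7.54% lower.

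**Figure D1:**
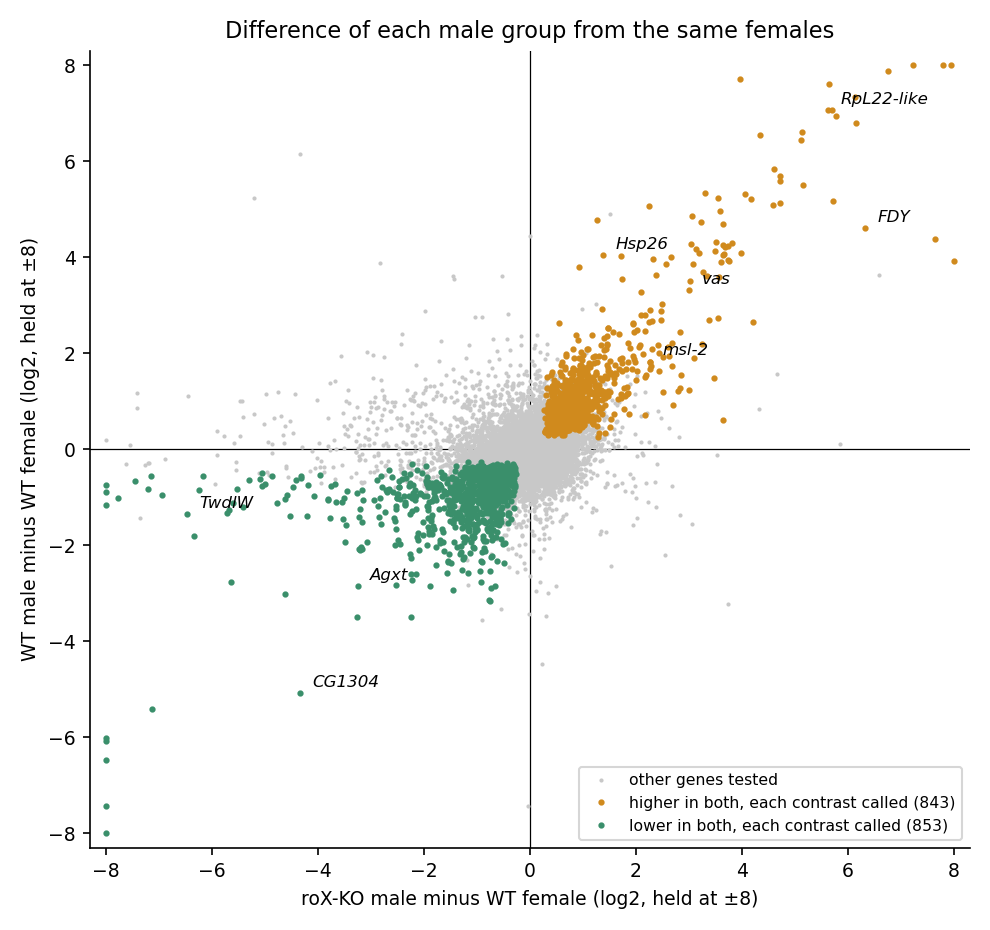
Log2 difference from WT females of each tested gene in roX-KO males (x axis) and WT males (y axis), with values past 8 held at the edge. The 843 genes higher and 853 lower in both male groups are coloured; both axes use the same 3 female libraries and are not independent.

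Of 37 tested genes of the germline and piRNA list 18 were higher and 0 lower, with a median log2 difference of 1.30 in roX-KO males and 1.11 in WT males, where the medians over all tested genes were 0.00 and -0.04. Without WT female 3, 22 were higher and 1 lower. The gene vas, on 2L, encodes the Vasa RNA helicase that marks germ cells. It had 129, 131 and 139 counts in roX-KO males, 139, 156 and 134 in WT males, and 19, 14 and 11 in WT females. Every male library was well above every female library, the male groups were close to each other, and the log2 difference was 2.998 ± 0.17 (SE) in roX-KO males and 3.32 ± 0.17 in WT males (edgeR adjusted p = 9.48e-07 for the mean of both). The roX-KO and WT males did not differ past the threshold for vas (-0.32, adjusted p = 0.0805).

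The gap junction gene zpg, which germ cells need to survive, was nearly absent from females. Its counts were 57, 54 and 48 in roX-KO males, 56, 58 and 68 in WT males, and 3, 1 and 1 in WT females, a log2 difference of 4.72 ± 0.32 in roX-KO males and 5.13 ± 0.31 in WT males. The gene aub, which encodes a Piwi protein of the germ line, had 114, 118 and 123 counts in roX-KO males, 159, 121 and 163 in WT males, and 21, 26 and 9 in WT females. For both genes the sexes did not overlap, and the male groups did not differ past the threshold (adjusted p = 0.0949 for zpg and 0.062 for aub).

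Other genes of the piRNA pathway were also higher. The values of qin, krimp, spn-E and mael, chosen here after they were seen as parts of the same pathway, lay between 1.95 and 2.61 in roX-KO males and between 2.09 and 2.65 in WT males. The gene krimp, which encodes a Tudor protein of the nuage, had 71, 82 and 69 counts in roX-KO males, 49, 43 and 46 in WT males, and 8, 15 and 9 in WT females. For spn-E, a helicase gene of the pathway, the counts were 93, 71 and 98 in roX-KO males, 62, 55 and 78 in WT males, and 19, 16 and 12 in WT females. The members that were not called in each group included pgc, whose counts were 400, 358 and 370 in roX-KO males, 345, 397 and 313 in WT males, and 358, 391 and 373 in WT females.

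The list of gonad paralogs holds second copies or relatives of ribosomal proteins and translation factors, several of them known from the germ line. Of 20 matched genes 13 were tested, 9 of them higher and 0 lower, and the counts were 9 and 0 without WT female 3. Their median log2 difference was 3.05 in roX-KO males and 3.70 in WT males, and 2.58 and 4.40 without WT female 3. The 9 were RpL22-like, gNacalpha, RpS19b, RpS10a, RpS5b, RpL37-2, eIF4E3, eIF4G2 and eIF3f2. RpL24-like, RpS14b, RpS15Ab and RpL34a were tested and not called, and of these RpL24-like, RpS14b and RpL34a had 2315 to 7694 counts in each library of both sexes.

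RpL22-like, the paralog of RpL22 on 2R, had 162, 135 and 170 counts in roX-KO males, 359, 370 and 349 in WT males, and 4, 3 and 1 in WT females. The log2 difference was 5.63 ± 0.23 in roX-KO males and 7.06 ± 0.22 in WT males (edgeR adjusted p = 1.49e-07 for the mean of both), and roX-KO males were below WT males by -1.43 (adjusted p = 4.35e-05). The parent gene RpL22, on the X, was far more abundant, with mean RPKM (CPM per kilobase of exon) of 611 in roX-KO males, 671 in WT males and 930 in WT females, where RpL22-like had 6.45 in roX-KO males, 17.4 in WT males and 0.121 in WT females. RpL22 passed for the mean of both (-0.54, adjusted p = 0.0321) but not in WT males alone (adjusted p = 0.0962). The call for the mean was lost with the replicate block (adjusted p = 0.071) and with males fitted as 1 group (0.0695). Separate fits of each male group with females test no mean, and there RpL22 did not pass in each male group (adjusted p = 0.201).

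The gene gNacalpha on 2L is a germ line copy of the alpha subunit of the nascent polypeptide-associated complex, which binds new proteins at the ribosome. It had 149, 124 and 151 counts in roX-KO males, 289, 303 and 279 in WT males, and 8, 7 and 7 in WT females. The log2 difference was 4.07 ± 0.16 in roX-KO males and 5.33 ± 0.16 in WT males, and the male groups differed by -1.26 (adjusted p = 2.87e-05). Its parent Nacalpha was not called (adjusted p = 0.284 for the mean of both). RpS19b had 54, 52 and 44 counts in roX-KO males, 89, 92 and 82 in WT males, and 2, 3 and 2 in WT females.

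For eIF3f2, a copy of a subunit of initiation factor eIF3, the counts were 10, 5 and 5 in roX-KO males, 20, 29 and 19 in WT males, and 0 in each WT female library. Against a floor of 3 counts over the 3 female libraries it was at least 5.9-fold higher in roX-KO males and at least 23.3-fold higher in WT males. In all 9 of these genes the male libraries were above the female libraries. For 6 of the 13 tested paralogs roX-KO males were lower than WT males, and for 0 higher. Over all 11308 tested genes, roX-KO males were lower in 2423 and higher in 2040.

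**Figure D2:**
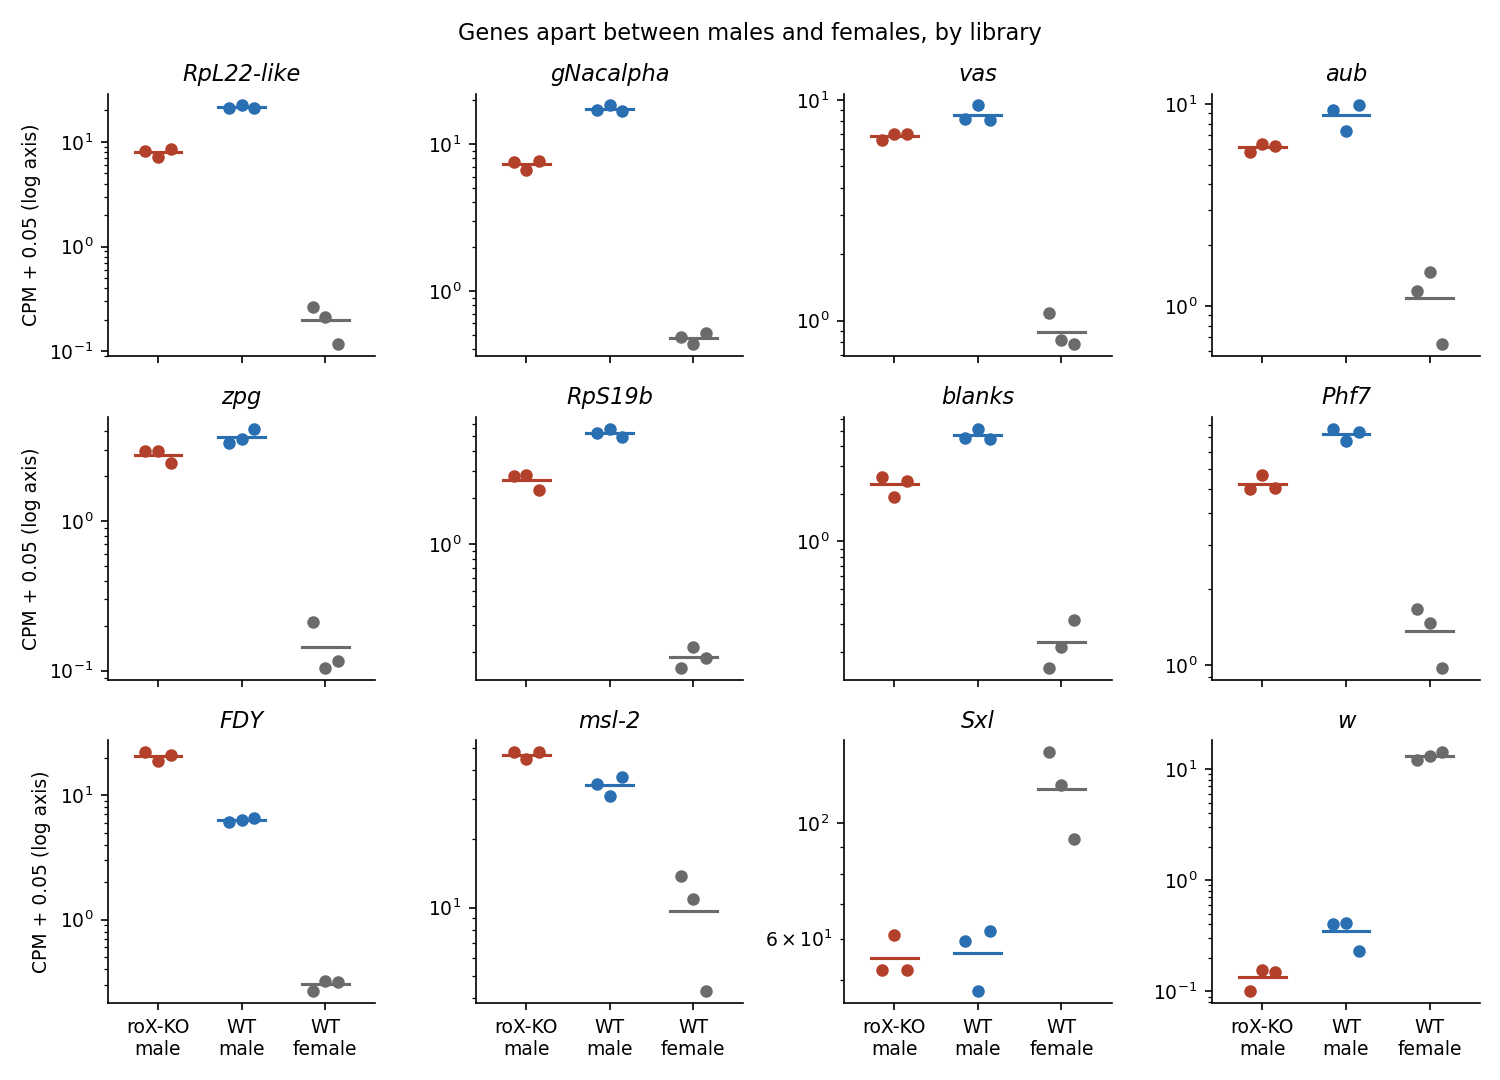
CPM plus 0.05 on a log axis for 12 genes, each panel with its own range, with 1 point per library and a bar at the mean of the 3 libraries of a group. The first 10 panels have all male libraries above all female libraries, and Sxl and w have them below.

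Other genes that stood out for a gap between the sexes had male-biased counts of a like size. The gene blanks, which encodes a double-stranded RNA binding protein of the male germ line, had 50, 35 and 47 counts in roX-KO males, 76, 85 and 73 in WT males, and 2, 3 and 4 in WT females. CG12477 on 3L had 27, 38 and 35 counts in roX-KO males, 99, 57 and 87 in WT males, and 0 in each WT female library, so it was at least 29.5-fold higher in roX-KO males and at least 83.4-fold higher in WT males. CG15930 on the X had 107, 83 and 80 counts in roX-KO males, 123, 112 and 127 in WT males, and 0, 0 and 3 in WT females. Its ratio to females was 79.6 in roX-KO males (95% counting interval 27 to 388) and 124 in WT males (42.2 to 605). CG3251 on 2L and Kots on 3R also had no overlap, with 108 counts over the roX-KO males, 213 over the WT males and 1 over the WT females for CG3251. For phu on 3R the log2 difference was 2.32 ± 0.14 in roX-KO males and 3.96 ± 0.14 in WT males.

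The late programme of the testis was hardly detected. Of 34 spermatocyte and sperm products 5 were tested and 1 was higher, twe, the Cdc25 phosphatase gene of male meiosis, with a log2 difference of 0.76 ± 0.21 in roX-KO males and 1.02 ± 0.21 in WT males. A further one, alphaTub84D, was called without WT female 3. Of 15 genes of the testis transcription programme 7 were tested and 2 were higher. Phf7, on the X, encodes a chromatin reader needed for male germ cell identity; it had 98, 106 and 100 counts in roX-KO males, 147, 128 and 139 in WT males, and 30, 26 and 14 in WT females. The other, mia, encodes a testis TAF subunit, and its log2 difference was 0.98 in roX-KO males and 1.07 in WT males. Of 20 oogenesis and yolk genes 5 were tested and 1 was higher in males, the yolk protein gene Yp3, at 15, 20 and 23 counts in roX-KO males, 30, 30 and 27 in WT males, and 9, 7 and 10 in WT females.

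Genes of the somatic gonad were mostly not called. Of 18 tested, 2 were higher and 1 lower, where 7.45% of all tested genes were higher and 7.54% lower. The median was 0.21 in roX-KO males and -0.13 in WT males. The counts were again 2 and 1 without WT female 3, and the median in roX-KO males was then -0.08. The gene tj, which encodes a Maf transcription factor of the somatic gonad, had 106, 90 and 99 counts in roX-KO males, 67, 64 and 69 in WT males, and 51, 48 and 26 in WT females. The JAK-STAT ligand gene upd3, on the X, had 86, 63 and 99 counts in roX-KO males, 103, 75 and 76 in WT males, and 44, 33 and 20 in WT females. Lower was ken, which encodes a transcriptional repressor. Its counts were 598, 616 and 658 in roX-KO males, 609, 520 and 563 in WT males, and 1413, 1424 and 548 in WT females. In CPM, which allow for its scaling, WT female 3 was above all males for ken but nearest to them.

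Of 20 tested sex determination genes 0 were higher and 1 lower, which was Sxl on the X, the switch gene of female development. It had 1034, 1146 and 1044 counts in roX-KO males, 1014, 789 and 1031 in WT males, and 2534, 2172 and 1406 in WT females. The sexes did not overlap, the log2 difference was -1.08 ± 0.16 in roX-KO males and -1.05 ± 0.16 in WT males (edgeR adjusted p = 0.000314 for the mean of both), and the male groups did not differ past the threshold (adjusted p = 0.902). The gene dsx, the transcription factor at the end of the pathway, passed for the mean of both (0.82, adjusted p = 0.012) but not in roX-KO males alone (0.61, adjusted p = 0.0609), nor with males fitted as 1 group (adjusted p = 0.0557). The splicing factor genes tra and tra2 and the behavioural regulator fru did not pass for the mean (adjusted p = 0.172, 0.242 and 0.498). Without WT female 3, fru passed for the mean at -0.38 (adjusted p = 0.00182), and Mettl14, a gene of RNA methylation, was higher in each group. Counts per gene do not show which splice form was made.

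Of the 5 protein genes of the MSL complex 2 were higher. The gene msl-2, on 2L, had 947, 837 and 955 counts in roX-KO males, 593, 512 and 622 in WT males, and 254, 198 and 64 in WT females. The sexes did not overlap; the log2 difference was 2.27 ± 0.32 in roX-KO males and 1.82 ± 0.32 in WT males (adjusted p = 0.000675 for the mean of both). The scaffold gene msl-1 had a log2 difference of 0.80 ± 0.17 in roX-KO males and 0.57 ± 0.17 in WT males. The helicase gene mle and the chromodomain gene msl-3 differed from females in roX-KO males (0.65 and 0.42) and not in WT males (-0.07 and 0.01), and the acetyltransferase gene mof in WT males (0.95) and not in roX-KO males (0.28). Of 13 dosage compensation cofactors 3 were higher, Top2, a topoisomerase gene (1.33 in roX-KO males and 1.23 in WT males), Iswi, a chromatin remodelling ATPase gene (0.74 and 0.46), and mrj, a chaperone gene (0.44 and 0.66). The count was 4 without WT female 3.

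The Y chromosome is present in males only, and 3 of its 113 genes passed the filter, with 30 having a count in any library. FDY, a Y copy of the autosomal gene vig2, had 436, 354 and 417 counts in roX-KO males, 104, 105 and 108 in WT males, and 4, 5 and 4 in WT females. The log2 difference was 6.32 ± 0.17 in roX-KO males and 4.61 ± 0.18 in WT males, and roX-KO males were above WT males by 1.71 (adjusted p = 4.65e-06). Reads of FDY and vig2 may be shared, and vig2 itself had 5518 to 6354 counts in females, so the level of FDY is uncertain. Su(Ste):CR42407, 1 of a family of near-identical Y repeats, had 73, 48 and 55 counts in roX-KO males, 2, 1 and 2 in WT males, and 0 in each WT female library; its reads cannot be assigned with certainty. The third, CR41506, was not called, with 31, 23 and 31 counts in roX-KO males, 23, 13 and 15 in WT males, and 23, 22 and 11 in WT females. Without WT female 3, FDY was the only Y gene called higher in each male group.

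Of 43 tested genes of DNA replication and mitosis 20 were higher and 1 lower, with medians of 0.63 in roX-KO males and 0.57 in WT males, and 24 and 2 without WT female 3. The 3 with the highest smaller difference were pim, CycB and CycB3. CycB, which encodes a mitotic cyclin, had 141, 146 and 145 counts in roX-KO males, 114, 102 and 120 in WT males, and 41, 44 and 24 in WT females. The sexes did not overlap for CycB, and its log2 difference was 1.82 ± 0.16 in roX-KO males and 1.67 ± 0.17 in WT males. The securin gene pim was at 1.92 in roX-KO males and 1.68 in WT males, and CycB3 at 2.197 and 1.55. Cdk2 was lower (-0.73 and -1.88), but an antisense gene overlaps 43.9% of its exons and the counting is not stated to use strand, so its value is uncertain. Beside this, the summed level of the 42 matched germline and piRNA genes was 767 to 803 CPM in roX-KO males. It was 576 to 681 CPM in WT males and 435 to 611 CPM in WT females. Members with many counts weigh most in this sum: roX-KO male 1 had 4998 counts of tud and 2089 of pum, beside 129 of vas. The sum is therefore not a measure of germ cell content. The part of germ cells in the result was not tested.

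Of 15 tested heat shock genes 7 were higher and 0 lower, with a median of 0.26 in roX-KO males and 2.92 in WT males. Hsp26, a small heat shock protein gene, had 942, 898 and 962 counts in roX-KO males, 5198, 5658 and 4515 in WT males, and 268, 334 and 344 in WT females. The 3 groups did not overlap. In 12 of the 15 genes roX-KO males were lower than WT males, as they were in 2423 of all 11308 tested genes. Hsp68 had a log2 difference of 1.73 ± 0.10 in roX-KO males and 3.55 ± 0.10 in WT males, and Hsp27 of 1.72 ± 0.10 and 4.02 ± 0.10. The near-identical Hsp70 genes can share reads, so their values are uncertain.

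FASN1, the fatty acid synthase gene, had 21235, 20198 and 21566 counts in roX-KO males, 16791, 12702 and 16451 in WT males, and 4379, 4261 and 2059 in WT females, a log2 difference of 2.41 ± 0.22 in roX-KO males and 2.17 ± 0.21 in WT males. Lsd-1, which encodes a perilipin of lipid droplets, was at 1.08 and 1.72. These were the 2 genes called among 19 tested fat body and larval serum genes, with 0 lower. Among all tested genes 7.45% were higher and 7.54% lower. Without WT female 3, 2 of the list were higher and 2 lower, the lower ones being bmm and mdy. The genes ple and Ddc, chosen after their values were seen, encode tyrosine hydroxylase and dopa decarboxylase, which make dopamine and feed the hardening of cuticle. Ddc had 4736, 4544 and 4915 counts in roX-KO males, 6971, 6508 and 6374 in WT males, and 1056, 1094 and 805 in WT females. The log2 difference of ple was 2.27 ± 0.17 in roX-KO males and 2.90 ± 0.18 in WT males.

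Genes that were lower in males were led by a stretch of the X. The white gene w (X, 2790599 to 2796466, dm6), an ABC transporter gene of eye pigment cells, had 1, 2 and 2 counts in roX-KO males, 6, 6 and 3 in WT males, and 223, 237 and 212 in WT females. At higher coordinates lay CG14416, CG14417, CG14418, CG14419 and CG3588, within 130 kb of w. CG14418 had 0, 7 and 1 counts in roX-KO males, 2, 2 and 2 in WT males, and 2232, 2334 and 2139 in WT females. CG3588 (X, 2919770 to 2924426) had 0 counts in each roX-KO male library, 65, 59 and 58 in WT males, and 9931, 10276 and 11493 in WT females, so it was at least 11945-fold lower in roX-KO males, with a fitted log2 difference of -7.42 ± 0.21 in WT males.

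CG14419 had 1, 0 and 0 counts in roX-KO males, 29, 31 and 20 in WT males, and 1521, 1694 and 2053 in WT females. CG14417 had 0 counts in each roX-KO male library, 3, 3 and 6 in WT males, and 313, 323 and 465 in WT females, at least 415-fold lower in roX-KO males. CG14416 had 2 counts over all 6 male libraries and 163 over the female libraries. All 6 genes including w thus had few or no counts in males of both genotypes, and CG3588, CG14419, CG14417 and w had fewer in roX-KO males than in WT males (edgeR adjusted p between 1.9e-05 and 0.0288). The labels do not give the stocks. A difference between stocks cannot be told apart from sex, at this place on the X or for any other gene here.

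Around w, 53 genes within 300 kb were tested, of which 14 were lower and 4 higher. Of all tested X genes 13.9% were lower and 2.98% higher. The first tested gene past CG3588, CG14424, was at -1.13 in roX-KO males and -2.16 in WT males. At lower coordinates than w, the 4 higher genes were wds, Klp3A, fs(1)Yb and fs(1)Ya. The gene fs(1)Yb, which encodes a piRNA factor of somatic gonad cells, had 22, 36 and 14 counts in roX-KO males, 30, 21 and 24 in WT males, and 4, 1 and 1 in WT females. These members were named after their values were seen, because of where they lie.

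**Figure D3:**
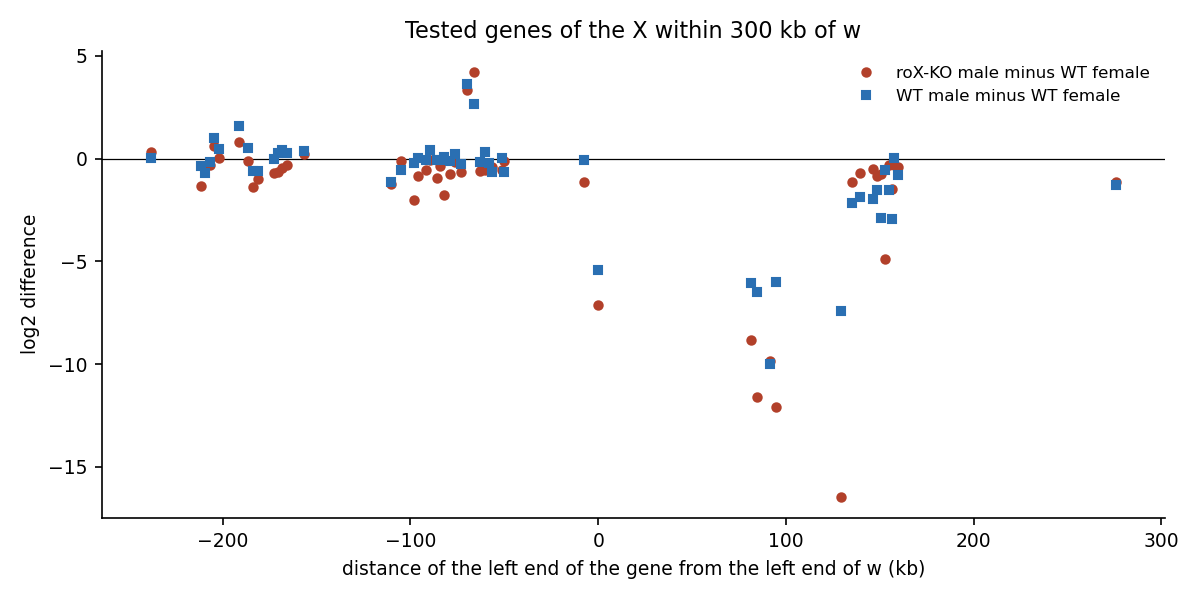
Log2 difference from WT females of the 53 tested genes on the X within 300 kb of w, by distance from w, in roX-KO males (circles) and WT males (squares). From w at 0 to CG3588 near 130 kb 6 genes lie far below 0 in both male groups; points for genes with 0 counts in roX-KO males are fitted values that depend on a prior count.

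Other genes lower in males lay elsewhere on the X and on the autosomes. CG1304 lies beside Ser6, a serine protease gene, on the X. CG1304 had 44, 36 and 52 counts in roX-KO males, 19, 26 and 23 in WT males, and 698, 732 and 907 in WT females, a log2 difference of -4.35 ± 0.23 in roX-KO males and -5.08 ± 0.25 in WT males. Ser6 was at -2.25 ± 0.24 and -2.59 ± 0.24. Agxt, the alanine-glyoxylate aminotransferase gene on the X, had 844, 795 and 865 counts in roX-KO males, 936, 1033 and 886 in WT males, and 6574, 6858 and 7420 in WT females. For Agxt the log2 difference was -3.25 ± 0.15 in roX-KO males and -2.85 ± 0.14 in WT males.

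CG10931 on 2R and CG11893 on 3R were the other genes of the first 10 lower ones. CG11893 had 37, 37 and 48 counts in roX-KO males, 247, 280 and 247 in WT males, and 1869, 1802 and 1709 in WT females. For CG10931 the counts were 16, 6 and 12 in roX-KO males, 8, 7 and 10 in WT males, and 117, 96 and 81 in WT females. Among genes with a name, Amyrel, an amylase-related gene, was at -2.49 ± 0.14 in roX-KO males and -1.89 ± 0.14 in WT males, and mag, which encodes a lipase of the gut, at -2.02 ± 0.20 and -1.78 ± 0.20. The actin gene Act79B (-1.95 and -1.997), the metallothionein gene MtnB (-2.12 and -1.89) and the Bomanin immune peptide gene BomBc2 (-2.14 and -1.82) were also lower.

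Of 112 tested detoxification genes 30 were lower and 6 higher, with a median of -0.38 in roX-KO males and -0.25 in WT males, and 36 were lower and 8 higher without WT female 3. Cyp12c1, a cytochrome P450 gene, had 975, 840 and 1038 counts in roX-KO males, 582, 604 and 545 in WT males, and 2690, 2629 and 2422 in WT females. GstD6 and GstD5, glutathione transferase genes, were at -2.12 and -3.16 in roX-KO males and at -1.75 and -1.52 in WT males. Higher instead was Cyp6a8, with 1858, 1708 and 1801 counts in roX-KO males, 1118, 1134 and 1134 in WT males, and 356, 330 and 298 in WT females.

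Of 49 tested digestive enzyme genes 6 were lower and 1 higher, where 7.54% of all tested genes were lower and 7.45% higher. The median was -0.45 in roX-KO males and -0.26 in WT males. Without WT female 3 the counts were 6 lower and 6 higher, with a median of -0.23 in roX-KO males and 0.08 in WT males. The amylase genes Amy-p and Amy-d were at -1.81 and -2.29 in roX-KO males and at -1.01 and -0.97 in WT males; they are near-identical copies, so reads may be shared between them. Mal-A4, a maltase gene, was at -1.06 and -0.79, while Mal-A7 was higher at 2.85 and 1.55. Of 25 ecdysone response genes 4 were lower and 1 higher, and 6 and 1 without WT female 3. ImpL1, an ecdysone-induced gene, had 1466, 1323 and 1591 counts in roX-KO males, 1308, 1297 and 1152 in WT males, and 3192, 3566 and 3387 in WT females. Its log2 difference was -1.40 ± 0.12 in roX-KO males and -1.41 ± 0.12 in WT males, and the male groups did not differ past the threshold (0.00, adjusted p = 0.995). Hr38, a nuclear receptor gene, was higher, at 2.51 in roX-KO males and 1.20 in WT males.

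Of 104 tested cuticle protein genes 23 were lower and 1 higher, and 27 and 4 without WT female 3, but the male groups were far apart, with a median of -2.37 in roX-KO males and 0.34 in WT males. The same sign was found in both male groups for 45 of the 104, where 63.1% of all genes had it. TwdlS, a Tweedle cuticle protein gene, had 2, 4 and 5 counts in roX-KO males, 71, 85 and 72 in WT males, and 242, 250 and 310 in WT females. TwdlR was at -4.54 in roX-KO males and -1.39 in WT males, and TwdlW at -6.48 and -1.35. With males fitted as 1 group, so that the spread between genotypes counts as error, these 3 did not pass (adjusted p = 0.0784, 0.0829 and 0.228). Lcp3, a larval cuticle gene, was the higher one, with 140, 145 and 164 counts in roX-KO males, 147, 204 and 148 in WT males, and 24, 22 and 33 in WT females.

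Of 15 tested hemocyte genes 3 were lower and 0 higher, where 7.54% of all tested genes were lower and 7.45% higher: the receptor gene NimC1 (-0.54 in roX-KO males and -0.58 in WT males) and the prophenoloxidase genes PPO1 (-2.23 and -0.31) and PPO2 (-2.38 and -0.50). The phenoloxidases did not pass with males fitted as 1 group (adjusted p = 0.249 and 0.161). Of 13 tested antimicrobial peptide genes 3 were lower, Drs, DptA and DptB, and 1 was higher, AttB, at 0.83 in roX-KO males and 1.90 in WT males. Drs did not pass with males fitted as 1 group (adjusted p = 0.0723). With separate fits DptA and DptB did not pass in each male group (adjusted p = 0.055 and 0.101). Both lists had the same counts without WT female 3. None of 20 body wall muscle, 18 neuronal or 9 glial genes was called in each group, by edgeR at an adjusted p under 0.05, in either direction; in the mean of both, 3 muscle, 2 neuronal and 1 glial gene passed, all lower. When WT female 3 was left out, Act87E and Strn-Mlck of the muscle list and repo of the glial list were lower in each group. The Turandot stress genes had 2 members tested and 0 called in each, and none of 14 Stellate genes was tested.

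**Figure D4:**
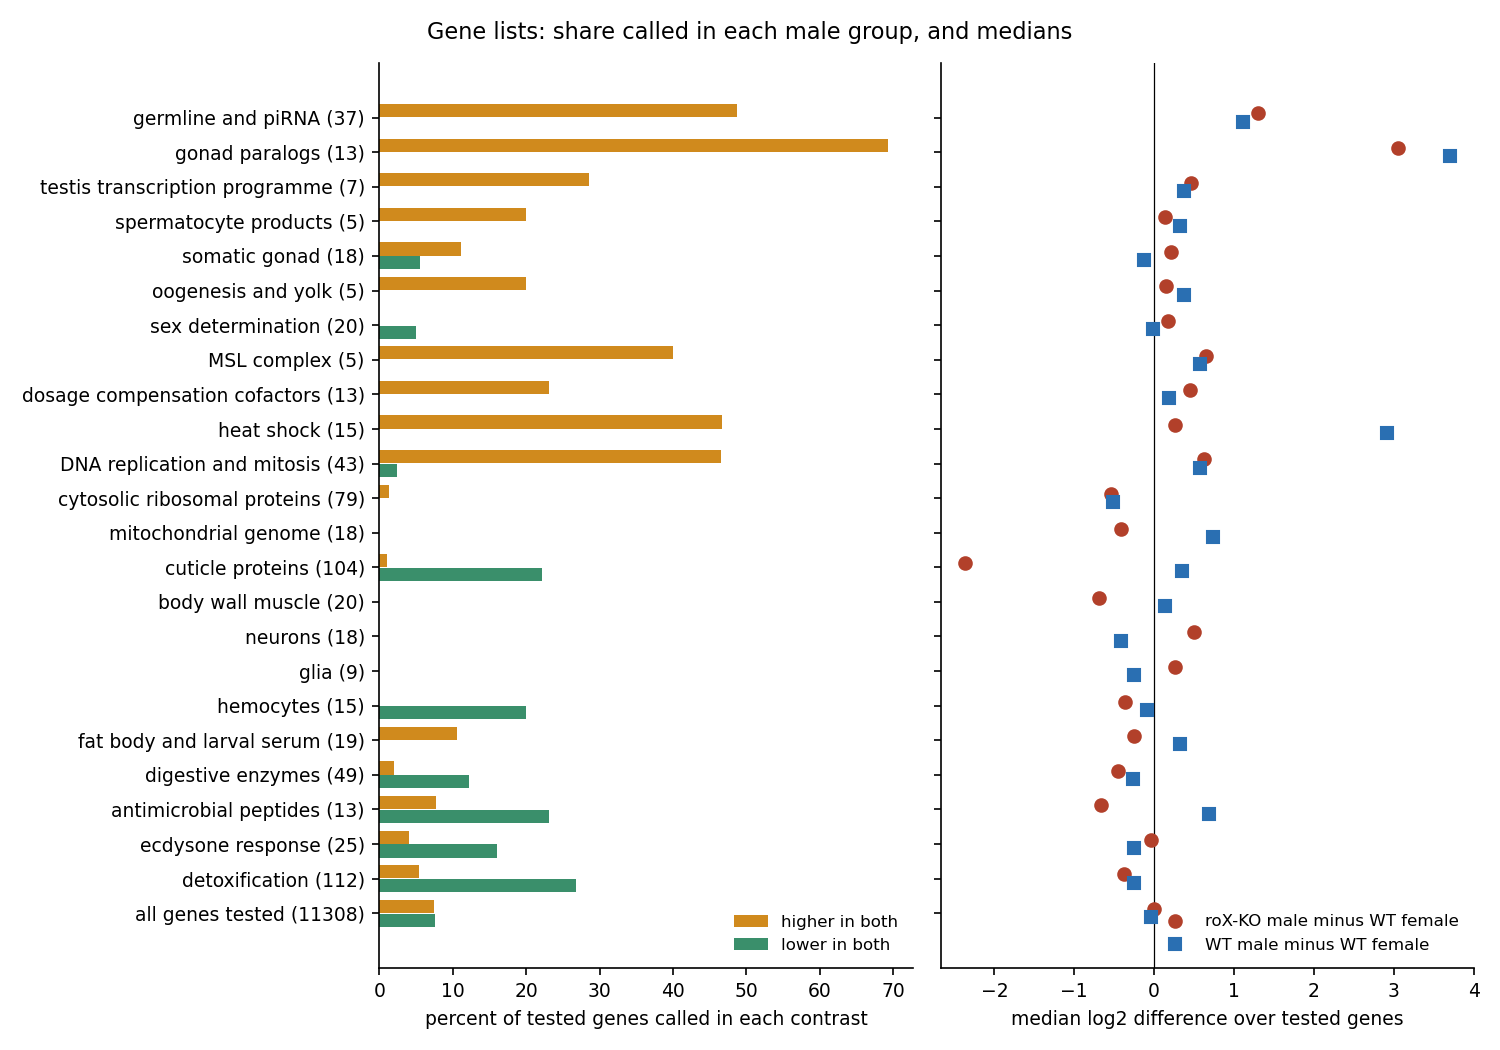
Left, percent of the tested genes of each list called higher or lower in each male group, with the number tested in brackets. Right, the median log2 difference from WT females over the tested genes of the list in roX-KO males (circles) and WT males (squares); the Y-linked, Turandot and Stellate lists, with 1, 2 and 0 genes tested, are left out.

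Of 79 tested genes of the cytosolic ribosomal protein list 78 had the same sign in both male groups. The medians of the list were -0.55 in roX-KO males and -0.52 in WT males. Only RpLP0-like, a relative of RpLP0 by name, was called in each, and it was higher. The summed scaled counts of the list made up 12.2, 12.4 and 12.3% in roX-KO males, 12, 14.2 and 11.5% in WT males, and 12.8, 13.8 and 26.1% in WT females. WT female 1 and 2 were within the range of the males, and WT female 3 was far above it. Without WT female 3 the medians were -0.12 and -0.09. What set this library apart was not tested.

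Genes lower in males were spread unevenly over the chromosomes. On the X 248 of 1780 tested genes were lower (13.9%) and 53 higher (2.98%), while on the major autosome arms 601 of 9391 were lower (6.40%) and 784 higher (8.35%). With WT female 3 left out, the X had 472 lower and 73 higher genes, and the arms 916 lower and 1374 higher. The X median was -0.44 in roX-KO males and -0.09 in WT males. With each male group taken alone, the X had 822 lower and 90 higher genes in roX-KO males. In WT males it had 336 lower and 257 higher, so the X excess of lower genes was mostly that of roX-KO males. On the arms 1542 were lower and 1755 higher in roX-KO males, and 1409 and 1449 in WT males. Of 92 genes of chromosome 4, 3 were lower and 1 higher, and of 18 mitochondrial genes 0 were called in each direction by edgeR in both groups (2 higher without WT female 3, mt:CoI and mt:CoIII), while 7 were higher in WT males alone and 2 lower in roX-KO males alone. Each arm had more higher than lower genes, from 190 against 89 on 2L to 223 against 219 on 3R. With scaling factors from the arm genes alone, 40.3% of genes called for the mean of both were higher, where the main scaling gave 44.7% and total counts 53.1%.

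The X shift, the median deviation of X genes minus that of autosome arm genes within a library, was computed for each library. It was -0.316, -0.294 and -0.342 on the log2 scale in roX-KO males, 0.149, 0.115 and 0.149 in WT males, and 0.221, 0.223 and 0.0679 in WT females. The roX-KO males lay below all others, and the WT males lay within the range of the females. The difference of both male groups from females was -0.26 (exact two-sided permutation p = 0.143, with 0.0238 the smallest possible). It was -0.49 for roX-KO males alone (exact permutation p = 0.1, the smallest possible) and -0.03 for WT males alone (exact permutation p = 0.6). With means over genes in place of medians the difference of both male groups was -0.27 (exact permutation p = 0.0238). Without WT female 3 it was -0.31 with medians (exact permutation p = 0.0714, the smallest possible with the libraries left).

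**Figure D5:**
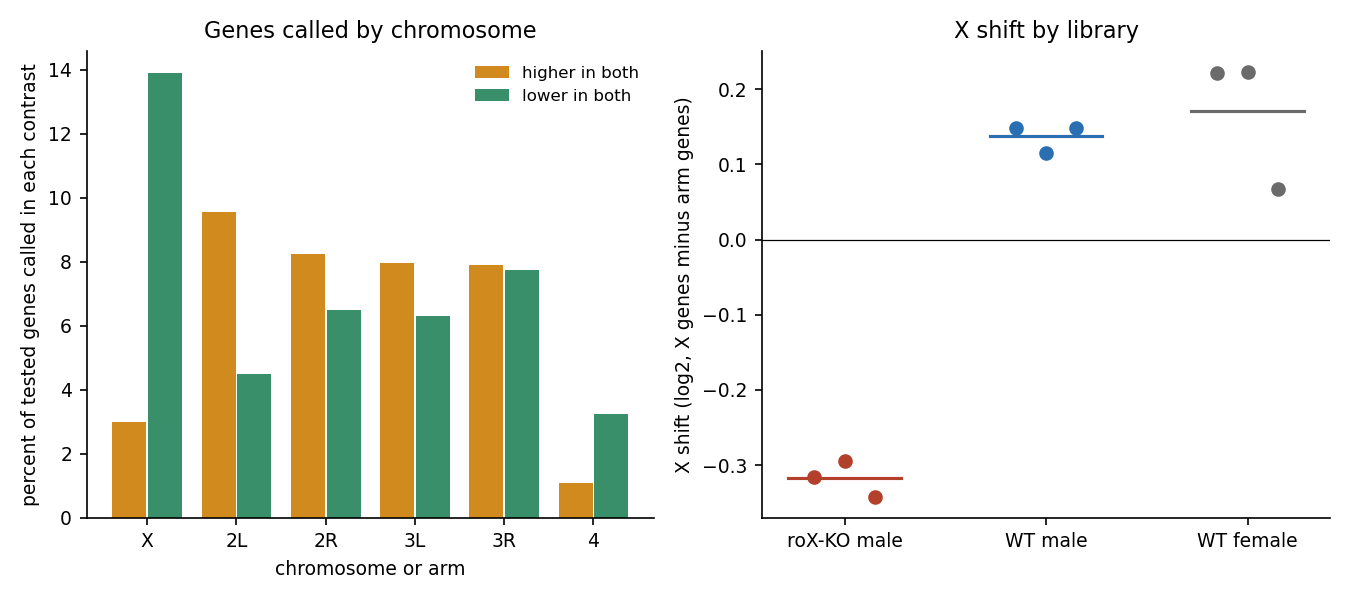
Left, percent of tested genes of each chromosome or arm called higher or lower in each male group, with 13.9% lower and 2.98% higher on the X. Right, X shift of each library on the log2 scale, with bars at group means; the 3 roX-KO males lie below 0 and the WT males and WT females above it.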

How the data were processed

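Raw counts per gene ID were deposited by the authors in a file for each library, which ends with lines for unassigned reads; reads in no feature made up 45.7 to 47.9% of all counted. The build dm6 and the tools DESeq2, HTSeq 2.0.2, HISAT2 2.2.1 and SAMtools 1.13 are named, with no role, per the submitters' processing notes. The strand setting is not given in the sources used here, nor is the annotation release. A deposited table that covers male libraries alone was not used here. Unassigned lines were dropped. Symbols and positions came from a BDGP6 annotation, the assembly also called dm6, which matched 17556 of 17611 gene IDs.

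Counts were filtered with filterByExpr (minimum count 10, minimum total 15), scaled by TMM and fitted over 3 groups with edgeR's quasi-likelihood test (edgeR 4.0.16, limma 3.58.1, R 4.3.3), with Benjamini-Hochberg adjustment over all genes tested and a threshold of 0.05. The contrast was the mean of both male groups minus females, and each male group minus females and roX-KO minus WT males came from the same fit. The scripts were tested on simulated counts. The X shift used log2 CPM with a prior count of 2 and an exact permutation test. Where a group had 0 counts, the fold is a bound computed with 3 counts in its place, summed over that group; 1 to 3 counts give a ratio with an exact 95% counting interval. Both cover counting error only. Python 3.11.15, pandas 2.3.3, NumPy 2.4.6, SciPy 1.17.1 and matplotlib 3.10.9 made tables and figures.

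The members and the 26 gene lists were chosen with earlier results of these data known; 26 of their symbols had no match. Genes were named by a rule: roX1, roX2, RpL22-like, gNacalpha, vas and FDY; among genes called in each male group, without overlap of the sexes and with a mean log2 CPM of 1 or more, the first 10 each way by the smaller absolute log2 difference, and the first 10 with a given name; and up to 3 each way per list, with all tested members of the sex determination, MSL and Y-linked lists. Others are marked in the text. The alternatives were DESeq2 1.42.0, RLE factors, total counts, arm-gene factors, no filter, at least 50 counts in at least 3 libraries, males as 1 group, each male group fitted with females alone, a replicate block and leaving out each library. The count of genes that also differ between male groups was rerun under them as an alternative added after seeing the data.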

Additional observations from a re-analysis of the deposited data

Results flagged for a closer look

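Of the 114 named genes, 86 were called in each male group, and in 45 of these the difference from females was not the same in the 2 male genotypes, by edgeR's test of roX-KO males minus WT males in the same fit. The adjusted p lay between 2.82e-07 for Hsp27 and 0.046 for CycB3, and the values below are that log2 difference. The male groups also differed in 39.5% of all tested genes, in 34.3% of the 843 higher genes and in 47.2% of the 853 lower ones. Among genes higher in males, roX-KO males were below WT males in RpL22-like (-1.43), gNacalpha (-1.26), CG12477 (-1.49), CG3251 (-1.2), RpS19b (-1.03), blanks (-1.05), phu (-1.64), eIF3f2 (-1.96), Phf7 (-0.661), Yp3 (-0.799), Hsp68 (-1.82), Hsp27 (-2.3), Hsp26 (-2.67), Lsd-1 (-0.643), AttB (-1.07), ple (-0.629) and Ddc (-0.702). They were above WT males in FDY (1.71), CycB3 (0.647), Mal-A7 (1.31), Hr38 (1.31), Cyp6a8 (0.445), Ugt36D1 (0.649) and fs(1)Ya (1.57). Among genes lower in males, roX-KO males were farther from females in CG3588 (-9.02), CG14417 (-5.13), CG14419 (-6.05), w (-1.72), Agxt (-0.409), CG11893 (-2.88), Amyrel (-0.602), TwdlS (-4.54), TwdlR (-3.14), TwdlW (-5.13), PPO2 (-1.88), PPO1 (-1.93), Amy-p (-0.798), Amy-d (-1.32), Drs (-1.82), DptB (-0.933), ImpE2 (-1.18) and GstD5 (-1.64). WT males were the farther ones in Cdk2 (1.15), ImpE3 (1.09) and Cyp12c1 (0.5). CG3588 and CG14417 had 0 counts in all roX-KO males, and their fitted values depend on a prior count.

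In 3 named genes 1 of the 6 male libraries stood apart from the other males. The gap to its neighbour took up 0.649 of the range in msl-1, 0.726 in FASN1 and 0.762 in DptA. Chance flags about 1 in 20 sets of 6 libraries from 1 group, and 114 sets were searched. The 6 males are of 2 genotypes, so that rate does not hold for them. WT male 2 was the lowest male for msl-1 and FASN1, at 30.2 and 764 CPM, and was still above all females, which had 17.7 to 27.7 CPM of msl-1 and 137 to 237 of FASN1. For DptA roX-KO male 1 was the highest male at 2.17 CPM, beside 2.65 to 2.73 in females.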

How the results depend on the processing

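The number of genes higher in both male groups was 802 with males as 1 group. It was 1214 to 2354 when 1 library was left out, the highest without WT female 3. The number lower was 734 and 1454 to 2460 in the same settings. Separate fits of each male group with females alone hold no test of the mean, so they give only counts with each group called. These were 554 higher and 595 lower, beside 843 and 853 in the main fit. With 1 library left out and each group called, 640 to 1459 genes were higher and 601 to 1397 lower. With males as 1 group no count with each group called exists. Genes of these that also differed between male groups numbered 692, and 440 to 1587 with 1 library left out. The X shift was -0.27 with means over genes (exact permutation p = 0.0238). All other alternatives kept these counts within 1.5 times. The cause of the changes was not tested, but separate fits use fewer libraries and males as 1 group put the genotype difference into the error.

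Among 2004 values of named genes under alternatives, 1932 kept direction and side of the threshold, 53 lost the threshold and 9 gained it. Of the named genes called in each male group, none lost the call for the mean of both when 1 library was left out. With males as 1 group TwdlS, TwdlR, TwdlW, PPO1, PPO2 and Drs lost the call. Separate fits test no mean of both. In them ken, Yp3, msl-1, Iswi, mrj, RpLP0-like, PPO1, DptA and DptB no longer passed in each male group. RpL22 lost its call without roX-KO male 1, 2 or 3 or WT male 1 or 3 (adjusted p between 0.0673 and 0.0759), and with the replicate block (0.071). The other 10 changed sign, in 6 sex determination genes that were not called. With 1 library left out, fl(2)d ranged from -0.057 to 0.19, nito from -0.16 to 0.25, da from -0.027 to 0.45, dpn from -0.36 to 0.037, gro from -0.031 to 0.36 and emc from -0.25 to 0.14. In emc the value was also 0.045 with total counts and 0.014 with the replicate block. Total counts put the median of all genes in roX-KO males at 0.21, beside 0.00 in the main scaling.

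Replicate numbers are shared by the groups. With the replicate block 1246 genes were higher and 1517 lower, 703 and 671 with each group called. Deviations of same-numbered libraries correlated at between -0.585 and 0.396, so the numbers are not treated as pairs. Libraries of different numbers ranged from -0.627 (WT male 2 and WT female 1) to 0.667 (WT male 2 and WT female 3). Depth was alike in all libraries, and genes with under 10 counts were mostly not tested.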
